A study of Mus musculus with 1504 samples.

Results

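The general capillary cells of adult mouse lung differed in their reads of Edn1, the gene that encodes endothelin 1. Cells with abundant Edn1 reads were compared here with cells that had none, 385 cells in all. They were chosen on read counts from the 769 cells sorted for an endothelial reporter, out of 1504 cells in the series. General capillary cells were taken as cells with at least 50 CPM of Gpihbp1 (counts per 1000000 reads of the cell) at least 100 CPM of Cd93, under 100 CPM of Ednrb, fewer than 2 of the arterial genes Gja5, Gja4, Bmx, Dkk2 and Sema3g at 20 CPM or more, and under 10000 CPM of the epithelial transcripts Sftpc and Scgb1a1 together. This left 478 cells. Of these, 185 cells with at least 100 CPM of Edn1 were called Edn1-positive and 200 cells with 0 Edn1 reads Edn1-negative. The 93 cells between, called Edn1-low, were left out of the comparison. Edn1 itself chose the classes, so its levels are given as a description and support nothing.

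Endothelin 1 is a small peptide that constricts blood vessels. Endothelial cells make it as a preproprotein, which furin and then endothelin-converting enzymes cut to the active peptide, and it acts on neighbouring cells through the receptors EdnrA, found mainly on smooth muscle, and EdnrB, which in the lung is a mark of the aerocyte, the thin capillary cell of gas exchange. The general capillary cell is the other capillary type of the lung. It is known for Gpihbp1, the anchor of lipoprotein lipase, and for its capacity to give rise to new capillary cells. Transcription of Edn1 is known to be raised by AP-1, GATA2, SMAD and hypoxia-inducible factors and lowered by steady flow and by KLF2.

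The gene lies on chromosome 13 of the mouse, from 42301476 to 42307990 on the plus strand in GRCm38. The stretch upstream of its start is shown because the factors examined below are known to act on this gene. It was taken from the RefSeq promoter table for GRCm38.p6 and covers the 250 bases at chr13:42301226-42301475 on the plus strand, written 5′ to 3′ up to the base before the start.

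Edn1 upstream: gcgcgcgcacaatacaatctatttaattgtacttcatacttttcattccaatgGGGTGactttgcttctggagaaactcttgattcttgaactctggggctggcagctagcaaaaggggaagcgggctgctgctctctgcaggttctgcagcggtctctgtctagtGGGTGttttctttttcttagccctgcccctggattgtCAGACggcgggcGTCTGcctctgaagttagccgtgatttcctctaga

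Capitals mark matches to 2 short motifs searched on both strands. CACCC, the core bound by Krüppel-like factors, matched on the minus strand at -197 and -84, where it reads GGGTG. The core bound by SMAD proteins, CAGAC, matched at -47 on the plus strand and at -35 on the minus strand, where it reads GTCTG. A window that also held the 50 bases after the start contained a further CACCC at position 34, GATAA (GATA factors) at 9 and ACGTG (hypoxia-inducible factors) at 22, all on the minus strand, and TGACTAA (a variant AP-1 site) at 37 on the plus strand, which overlaps the CACCC. The letters TGANTCA (AP-1) and GTAAACA (FOX factors) were not found in these letters. Of 32851 promoter windows of this length, 57.5% held CACCC, 49.6% CAGAC, 25.4% GATAA, 19.6% ACGTG, 7.81% TGANTCA, 3.65% GTAAACA and 2.35% TGACTAA. These matches are descriptions of the letters and not measured binding sites.

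Cells came from lungs of C57BL/6 mice carrying eGFP on a bacterial artificial chromosome under Cldn5 control (Cldn5(BAC)eGFP), and were sorted for that fluorescence into plates of 384 wells before SMART-seq2, which reads whole polyadenylated transcripts. Every cell compared thus carried the reporter and had passed the same sort. The mice were 12 to 15 weeks old by the labels and 10 to 19 weeks old by the series design. The other groups of the series were 374 cells with a Pdgfrb-eGFP reporter and 361 that also carried NG2-dsRed. The endothelial columns fall into 3 sets, EC1, EC2 and EC3, which held 243, 275 and 251 cells. The labels tie no column to an animal, plate or date, and the 3 sets therefore count as 1 sample. No test was possible, no p-value was computed, and values are given side by side for the 3 sets. Where a gene differed the same way in all 3, this describes these sets and is not a replicate check of mice. Intervals are exact at 95% and cover counting error only.

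The label was checked against marker lists. Summed levels of 10 general endothelial markers ran from 22098 to 28895 CPM in Edn1-positive and from 23544 to 27806 CPM in Edn1-negative cells. The 7 general capillary markers other than Gpihbp1 and Cd93, which every cell had to carry, summed to 11404, 13355 and 11285 CPM in Edn1-positive cells of EC1, EC2 and EC3 and to 12365, 12300 and 11169 CPM in Edn1-negative cells, with none of them at 0 in any class. Reads per cell ran from 102069 to 415018 over the 478 cells, with a median of 192066. The median for Edn1-positive and Edn1-negative cells was 184064 and 196526 reads in EC1, 199994 and 191347 in EC2, and 201958 and 186800 in EC3, so neither class was deeper in every set. Genes detected per cell, with each cell thinned to 50000 reads, had medians of 1596 and 1588, 1612 and 1586, and 1552 and 1544 in the same order. The wells of the column names showed 2 rows of EC2 that stood apart. Before thinning, the 9 cells of row K had a median of 804 genes (635 to 4021) and the 8 cells of row L one of 1464 (1326 to 1628). The medians of the other 46 rows ran from 1656 to 2190 genes, though single cells there overlapped row L, such as 1 with 1385 genes in row G of EC3. The 17 cells of rows K and L held 2 Edn1-positive and 13 Edn1-negative cells, so they weigh on the Edn1-negative side of EC2. Values without them are given where a result rests on them.

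Edn1 reads varied widely among cells that share this identity. In EC1, Edn1-positive cells had 102 to 3758 CPM with a median of 813 CPM (n = 66 cells). In EC2 they had 101 to 8328 CPM with a median of 948 CPM (n = 62), and in EC3 102 to 4616 CPM with a median of 889 CPM (n = 57). The 3 medians lay close together, within quartiles of 374 to 1458, 427 to 2193 and 332 to 1721 CPM. Edn1-low cells had medians of 8.70, 10.1 and 14.4 CPM. Cells nearest the threshold had 81.2, 83.8, 90.6 and 91.5 CPM on its lower side and 101, 102, 102 and 102 CPM on its upper side. Cells between 100 and 300 CPM were few, 42 of 478 (8.79%), against 143 (29.9%) with 300 CPM or more.

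**Figure D1:**
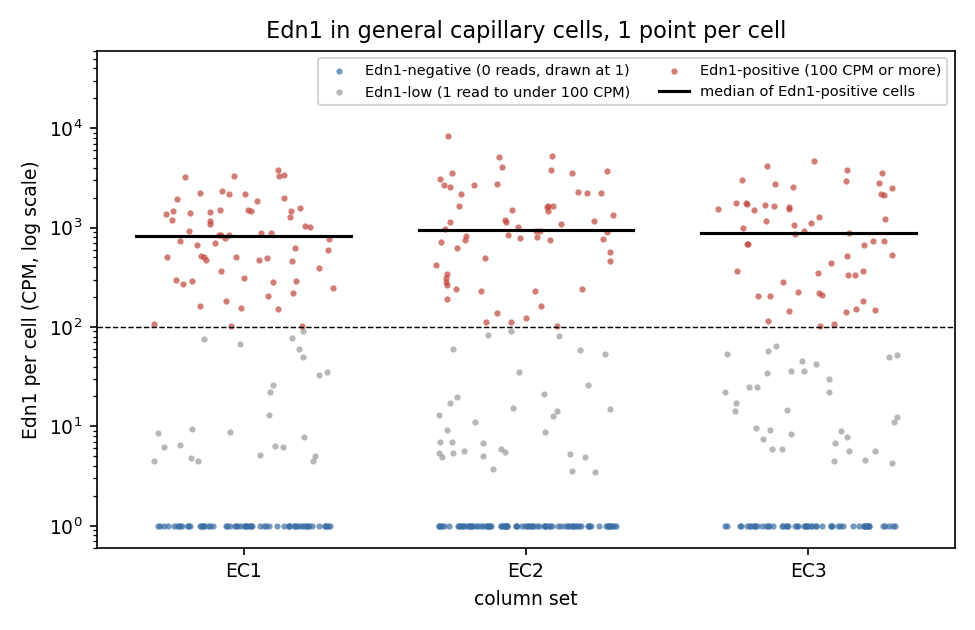
Edn1 in each of the 478 general capillary cells (vertical axis, CPM on a log scale) by column set (horizontal axis). Each point is 1 cell, cells with 0 reads are drawn at 1, the dashed line is the 100 CPM threshold and black bars are medians of the Edn1-positive cells, at 813, 948 and 889 CPM.

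Edn1-positive cells made up 43.4% (35.4 to 51.7) of the general capillary cells of EC1, 34.6% (27.7 to 42.1) of EC2 and 38.8% (30.9 to 47.2) of EC3, and these intervals overlap. Edn1-negative cells made up 40.1%, 46.4% and 38.1%. By the row letters of the wells in the column names, shares of Edn1-positive cells by block of 4 rows ran from 35.9% to 53.8% in EC1 and from 28.6% to 54.5% in EC3. In EC2 they ran from 37.7% to 45.2% in 3 blocks, but rows I to L held 5 of 38 cells, 13.2% (4.41 to 28.1). Rows K and L are the rows with low gene counts. Rows I and J had medians of 2004 and 1988 genes, and 0 of their 10 and 3 of their 11 cells were Edn1-positive. The share in EC2 was 40.4% without rows I to L and 37.0% without rows K and L. What part gene detection has in the low share was not tested. The same rows of EC3 held the highest block share of that set.

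Other cells of the series place these values. After thinning, 51.0% (46.5 to 55.6) of the general capillary cells held an Edn1 read. Among the 87 aerocytes, 8.05% (3.30 to 15.9) did, at a median depth of 294463 reads. Aerocytes were taken as cells of the same sets with at least 100 CPM of Ednrb and under the same epithelial limit. The Gpihbp1, Cd93 and arterial thresholds were not asked of them. Mural3, a set of 374 mural columns whose names give no reporter, gave 2.94% (1.48 to 5.20) at a median depth of 368008 reads, and the mural sets Mural2 (233 cells) and Mural1 (128 cells) gave 6.44% (3.65 to 10.4) at 235434 reads and 2.34% (0.486 to 6.70) at 289254 reads. Mural cells serve as the level in cells that should lack the transcript, and the interval of Mural2 overlaps that of the aerocytes. Endothelial cells with 2 or more of the 5 arterial genes (109 cells) gave 54.1% (44.3 to 63.7). The intervals of general capillary and artery-marked cells overlap, and that of the aerocytes, the cells that carry the receptor EdnrB, lies below both. Levels over all cells were 503 CPM (498 to 507) in general capillary cells, 572 CPM (563 to 583) in artery-marked cells, 32.5 CPM (30.4 to 34.8) in aerocytes, 5.03 CPM (4.66 to 5.42) in Mural3, 12.0 CPM in Mural2 and 4.76 CPM in Mural1.

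Few other transcripts differed with Edn1. A gene passed the size rule where its summed reads differed at least 1.5-fold in the same direction in each of the 3 sets, its higher side averaged at least 20 CPM and at least 25% of the cells on that side held a read after thinning. Of 1764 genes with enough reads, 9 passed as higher (0.51%) and 13 as lower (0.737%) in Edn1-positive cells, 22 in all. Without rows K and L of EC2 the counts were 6 higher and 13 lower, of which 6 and 11 were among the 22. Tmem63a, Mat2a, Nod1, Ttc3 and Clasp2 were those lost, each below 1.5-fold in EC2. At a log2 ratio of at least 0.32 in each set, 34 were higher (1.93%) and 55 lower (3.12%), and at 2-fold 0 passed in either direction (0%). For scale, the same rule applied to the 87 aerocytes against the Edn1-negative cells passed 282 of 2418 genes as higher (11.7%) and 237 as lower (9.8%), although that comparison had only 20 to 39 aerocytes a set and so more scatter. Agreement of direction alone, with no size asked, was found for 229 genes higher (13%) and 238 lower (13.5%) in Edn1-positive cells. Such shares lie near what 3 sets with unrelated directions would give.

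The genes that passed were among those read in few cells. Of 1266 genes read in 25% to 50% of the cells on their higher side, 20 passed (1.58%). Of 342 genes read in 50% to 75%, 2 passed (0.585%). Of the 156 genes read in 75% or more of the cells, none passed, and 142 (91%) had a mean log2 difference within 0.32 of 0. Most of these widely read transcripts were therefore close in level in the 2 classes on the mean of the 3 sets. Opposite differences of single sets can cancel in that mean. Ece1, for example, had log2 differences of -0.06, -0.26 and 0.62 in EC1, EC2 and EC3 and a mean of 0.10. The extremes of that last group were Cxcl12 (mean log2 difference 0.65), which was not higher in EC3, and Tubb5 (-0.62), both named after their values were seen.

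**Figure D2:**
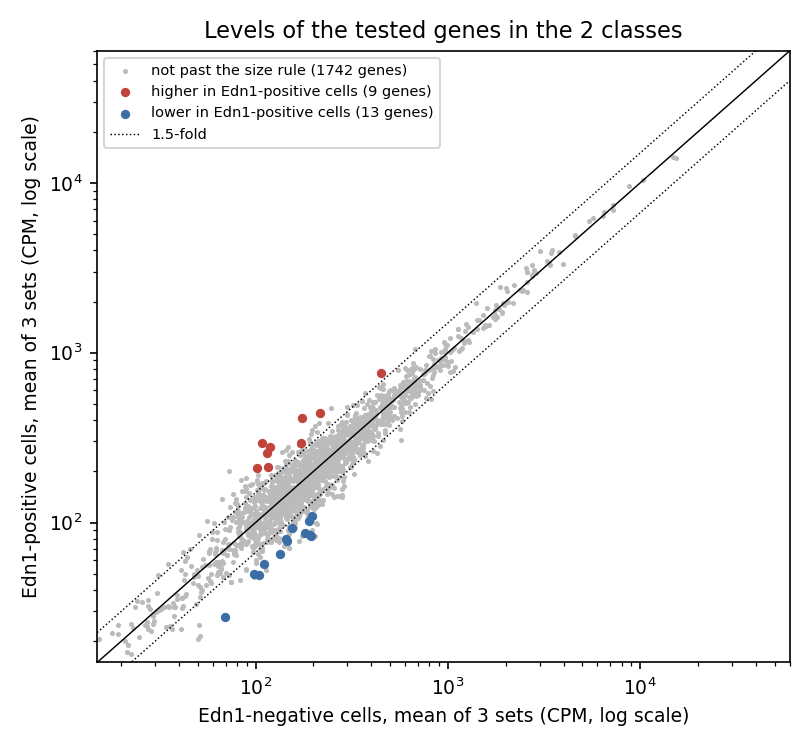
Mean level over the 3 sets of each of 1764 tested genes in Edn1-negative (horizontal) and Edn1-positive cells (vertical), in CPM on log scales. Dotted lines mark 1.5-fold, red points the 9 genes passing as higher and blue points the 13 passing as lower. The cloud narrows toward abundant genes, and the coloured points lie below 1000 CPM.

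Slc6a6, the taurine transporter, was the most widely read of the higher genes apart from Rbm25. It stood at 815 CPM in Edn1-positive against 524 CPM in Edn1-negative cells of EC1, 1002 against 519 CPM in EC2 and 470.0 against 306 CPM in EC3. The folds were 1.56 (1.51 to 1.61), 1.93 (1.88 to 1.98) and 1.54 (1.47 to 1.60), while the classes overlap when levels are set across sets. Its reads were found in 57.8% of Edn1-positive and 44.5% of Edn1-negative cells. Nod1, a cytosolic sensor of bacterial peptidoglycan, stood at 403 against 237 CPM, 248 against 161 CPM and 237 against 121 CPM, in 49.7% against 34.0% of cells. Without rows K and L it stood at 257 against 190 CPM in EC2. Slc6a6, Nod1 and Med12, a Mediator subunit, were the only tested genes whose share of cells with a read was at least 10 points higher in Edn1-positive cells in each set (0.17% of genes), and no gene met this in the lower direction. Med12 did not pass the size rule and was named for its share.

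Rbm25, an RNA-binding protein that acts in splicing, stood at 318 against 206 CPM in EC1, 448 against 184 CPM in EC2 and 479 against 133 CPM in EC3, with reads in 64.9% against 48.5% of cells. The positive values lay above all 3 negative values. Tmem63a, a mechanically gated cation channel, had the largest mean log2 difference, 1.66, from 358 against 39.0 CPM, 246 against 142 CPM and 279 against 142 CPM. EC1 gave a fold of 9.18 (8.34 to 10.1), while EC2 and EC3 gave 1.74 and 1.96. Without rows K and L the levels in EC2 were 255 against 170 CPM. Pde4b, which breaks down cyclic AMP, stood at 227 against 134 CPM, 663 against 241 CPM and 432 against 273 CPM, and its classes overlapped across sets.

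Pros1, the anticoagulant cofactor protein S, stood at 312 against 93.7 CPM, 326 against 153 CPM and 202 against 112 CPM. It was read in 25.9% and 20.5% of cells, and in general capillary cells with no gated arterial gene its mean log2 difference was -0.41. Mat2a, which makes the methyl donor S-adenosylmethionine, stood at 192 against 115 CPM, 214 against 92.9 CPM and 226 against 98.7 CPM, and in EC2 at 150.1 against 110.1 CPM without rows K and L. Maf1, a repressor of RNA polymerase III, stood at 185 against 96.0 CPM, 233 against 146 CPM and 221 against 108 CPM. Clptm1l, a membrane protein, stood at 368 against 155 CPM, 210 against 114 CPM and 196 against 75.0 CPM. Single cells weighed on these sums: the cell with most reads of a gene held up to 20.0% of the reads of the higher side in the median gene, at its largest over the sets, and up to 40.0% for Pros1. With that cell left out of each class and set, 10 genes passed as higher, 7 of them among these 9.

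The lower genes were read in smaller shares of cells. Cmtm3 stood at 107 CPM in Edn1-positive against 189 CPM in Edn1-negative cells of EC1, 104 against 234 CPM in EC2 and 39.7 against 161 CPM in EC3, a mean log2 difference of -1.34, with reads in 15.7% against 27.0% of cells. Every positive value lay under every negative one. Tmem88, an inhibitor of Wnt signalling, stood at 59.0 against 119 CPM, 57.9 against 132 CPM and 77.7 against 151 CPM, with no overlap, in 19.5% against 28.0% of cells. Il17rd, an antagonist of fibroblast growth factor signalling, stood at 41.4 against 113 CPM, 126 against 215 CPM and 161 against 265 CPM, in 20.0% against 27.0% of cells. Klf7, a Krüppel-like transcription factor, stood at 60.7 against 96.7 CPM, 51.5 against 113 CPM and 58.8 against 123 CPM.

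Ndufc2, a subunit of respiratory complex I, stood at 67.3 against 122 CPM, 20.5 against 65.6 CPM and 59.5 against 124 CPM. Ndufv3, another subunit of that complex, stood at 62.9 against 95.2 CPM, 39.7 against 93.9 CPM and 46.1 against 105 CPM. Its share of cells with a read was lower in EC3 only, at 24.24% against 22.95%, 25.8% against 20.5% and 22.8% against 37.5%. Pabpc1, the poly(A)-binding protein, has close paralogs, so that its reads are uncertain, and stood at 23.8 against 49.4 CPM, 36.0 against 56.9 CPM and 23.3 against 101 CPM. Usp47, a deubiquitinase, had a mean log2 difference of -1.18, Hn1 one of -1.05 and Ttc3, a ubiquitin ligase, one of -0.87. Clasp2, which binds growing microtubule ends, Mrpl4 of the mitochondrial ribosome and Rin3, an activator of Rab5, complete the 13, at -0.86, -0.85 and -0.75. They lie beyond the 10 per direction that the naming rule takes. Rin3 was read in 37.3% of Edn1-positive and 34.5% of Edn1-negative cells.

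The lower genes rested more on single cells. The cell with most reads of a gene held up to 31.1% of the reads of the higher side in the median gene, and 50.2% for Clasp2. With that cell left out of each class and set, 16 genes passed as lower, 10 of them among these 13. Where the share of cells with a read also had to be lower in each set, 6 of the 13 remained, and 8 of the 9 higher genes did under the mirror of this demand. With each cell thinned to the same number of reads, 11 genes passed as lower, 4 of them among the 13, and 8 as higher, 7 of them among the 9. Hn1 was among those lost under the demand on shares, since its reads were found in 22.8% of Edn1-positive and 14.3% of Edn1-negative cells of EC3.

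**Figure D3:**
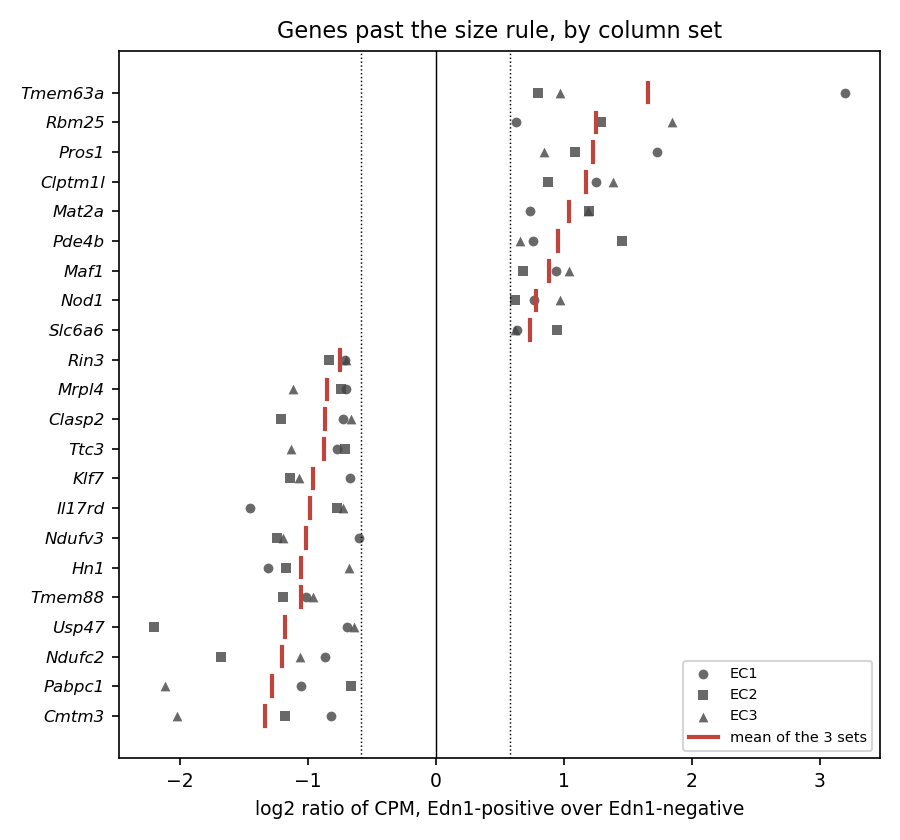
log2 ratio of CPM (horizontal axis), Edn1-positive over Edn1-negative, for the 22 genes past the size rule (vertical axis) in EC1 (circles), EC2 (squares) and EC3 (triangles), with their mean as a red bar. Dotted lines mark 1.5-fold. The EC1 point of Tmem63a, at 3.20, lies far from its other 2 points.

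Inside the Edn1-positive class, cells with 300 CPM or more of Edn1 were set beside those with 100 to under 300 CPM, as a description of the class. Of the 185 cells, 143 are in the upper band, so the choice of the higher genes favoured genes abundant there, and nothing is read from these values. Nod1, Rbm25 and Pros1 were more abundant at the higher Edn1 level in all 3 sets, which is 3 of the 9 higher genes (33.3%), and none of the 9 was less abundant in all 3. Over all tested genes, 16.8% were more abundant and 9.98% less. Rbm25 stood at 226, 137 and 454 CPM in the 100 to 300 CPM cells of EC1, EC2 and EC3, and at 345, 535 and 489 CPM in the cells above. Slc6a6 stood at 849, 845 and 508 CPM and then at 805, 1045 and 456 CPM, with no common direction. Of the 13 lower genes, Il17rd was less abundant in all 3 sets and Hn1 more. The 100 to 300 CPM cells numbered 15, 13 and 14 in the sets.

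The genes that process and receive endothelin were mostly too scarce to compare. Ece1, the endothelin-converting enzyme, stood at 1501 against 1567 CPM in EC1, 1367 against 1639 CPM in EC2 and 2138 against 1388 CPM in EC3, so it was higher in Edn1-positive cells of EC3 only and did not pass. Furin, which makes the first cut, stood at 40.6 against 77.7 CPM, 34.4 against 34.4 CPM and 73.5 against 30.7 CPM. Edn2, Edn3, Ednra and the peptidase gene Mme were at most 6.25 CPM in every class and set. Ece2, a second converting enzyme, stood at 21.0 against 28.5 CPM, 0.314 against 4.53 CPM and 0 against 23.2 CPM. It was read in 1.08% of Edn1-positive and 1.5% of Edn1-negative cells, so these values rest on single cells. In EC1, 1 cell held 99.6% of the reads of Edn1-positive cells and 1 cell 99.4% of those of Edn1-negative cells. In Edn1-negative cells of EC2 and EC3, 1 cell held 100% and 99.6%. Ednrb was capped by the selection, so its level of at most 2.87 CPM says nothing about the receptor. Of the 9 genes of the endothelin list, 2 could be tested and neither passed, which is no result about them where 0.51% of all tested genes passed as higher and 0.737% as lower.

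Transcription factors known to act on Edn1 were measured next. Of 20 such factors and partners, 9 could be tested, and 0 passed, near the 0.51% and 0.737% of all genes. Without regard to size, 0 of the 9 were higher and 3 lower in each set, namely Klf2, Klf4 and Rela, beside 13% and 13.5% of all tested genes. With rows K and L of EC2 left out, 1 of the 9 was higher and 2 were lower in each set, Klf2 and Rela. The list had a median log2 difference of -0.19 for the 17 at 5 CPM or more. The same median over all 10285 genes at that level was -0.05, with quartiles of -0.65 and 0.48. Gata2 stood at 510 against 462 CPM, 346 against 290 CPM and 369 against 480 CPM. Jun, a part of AP-1, stood at 545 against 508 CPM, 349 against 395 CPM and 558 against 463 CPM. Epas1, the hypoxia-inducible factor of endothelium, stood at 5338 against 5632 CPM, 6316 against 5724 CPM and 6163 against 4951 CPM. In all 3 genes the direction differed between sets. Rela, a subunit of NF-kB, stood at 131 against 312 CPM, 96.5 against 163 CPM and 157 against 187 CPM.

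Klf2 and Klf4, Krüppel-like factors that respond to flow, were lower beside Edn1 without passing. Klf2 stood at 194 against 208 CPM, 198 against 298 CPM and 117 against 124 CPM. Klf4 stood at 91.0 against 166 CPM, 135 against 164 CPM and 46.9 against 113 CPM, a mean log2 difference of -0.81, with reads in 21.6% of Edn1-positive and 36.0% of Edn1-negative cells. Both were lower in Edn1-positive cells in each set, and Klf4 missed 1.5-fold in EC2. The fold of Klf2 was 0.933 (0.882 to 0.986) in EC1. In EC3 it was 0.939 (0.871 to 1.01), which lies within counting error. Without rows K and L of EC2, Klf2 stood at 174 against 252 CPM there and Klf4 at 138 against 124 CPM, so that Klf4 was then lower in EC1 and EC3 only. In cells with no gated arterial gene neither kept 1 direction over the sets. Of 11 tested flow-responsive genes, 3 were lower in each set and 0 higher, and 0 passed, beside 13.5% and 13% of all tested genes with such agreement. Without rows K and L, 2 were lower in each set.

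Signalling lists are given for the levels of their members, since counts of 0 in lists of this size lie near the 0.51% and 0.737% over all genes and are no result about a list. In the TGF-beta and BMP list, 0 of 12 tested genes passed. Id1, a direct SMAD target, stood at 187 against 179 CPM, 256 against 253 CPM and 216 against 215 CPM, nearly equal in each set. Smad7 stood at 298 against 214 CPM, 268 against 283 CPM and 263 against 321 CPM. In the hypoxia list, 0 of 4 passed. Vegfa was higher in each set at 269 against 242 CPM, 278 against 192 CPM and 358 against 274 CPM, and below 1.5-fold. Among cells with no gated arterial gene it was higher in EC1 and EC2 only, with 249 against 294 CPM in EC3. Ldha, the lactate dehydrogenase of glycolysis, was lower in each set at 96.9 against 164 CPM, 88.0 against 141 CPM and 129.9 against 132.4 CPM. Its fold in EC3, 0.981 (0.913 to 1.05), lies within counting error. In the NF-kB list, which holds Rela, 0 of 4 passed, and Icam1 ranged from 276 against 646 CPM in EC1 to 326 against 157 CPM in EC2. In the list of immediate early and heat shock genes, which rise when cells are handled, 0 of 4 tested genes passed, and none had the same direction in every set.

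Genes of vascular function were measured at high levels in both classes. Among 24 vasoactive mediators, 12 were tested and 0 passed. Cav1, the coat protein of caveolae, was higher in each set at 4137 against 3155 CPM, 4124 against 3054 CPM and 3577 against 2833 CPM, with no overlap between classes and a mean log2 difference of 0.39. Among cells with no gated arterial gene it was higher in EC1 and EC2 only, with 3299 against 3427 CPM in EC3. Ace, which makes angiotensin II, stood at 2641 against 1797 CPM, 2304 against 2225 CPM and 2316 against 2021 CPM. Calcrl, the adrenomedullin receptor, stood at 3243 against 3224 CPM, 3296 against 3371 CPM and 3595 against 3534 CPM. Nos3, whose product makes the vasodilator nitric oxide, was read in 15.7% and 16.0% of cells, too few to be tested.

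No gene passed in the remaining lists either, again near the share over all genes: 8 tested genes of haemostasis and the storage granule in which endothelin can be kept, 15 of VEGF, angiopoietin and Notch signalling, 13 of antigen presentation, 11 of the interferon response, 3 of lipid handling, 10 of matrix and YAP targets, 12 endothelial transcription factors, 2 of the cell cycle and 17 of junctions. Vwf, which forms that granule, stood at 825 against 802 CPM, 880 against 701 CPM and 552 against 762 CPM. Cd74, an antigen-presentation chaperone that marks general capillary cells, stood at 3259 against 3493 CPM, 1790 against 1812 CPM and 907 against 757 CPM. Cd36, a fatty acid carrier, stood at 6635 against 6395 CPM, 7692 against 7297 CPM and 7813 against 7937 CPM. Cldn5, whose control region drives the reporter, stood at 12894 against 12908 CPM, 7446 against 8993 CPM and 10833 against 9095 CPM. The eGFP transcript was lower in Edn1-positive cells in each set, at 3574 against 4256 CPM, 2856 against 3248 CPM and 3492 against 4362 CPM, also below 1.5-fold.

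**Figure D4:**
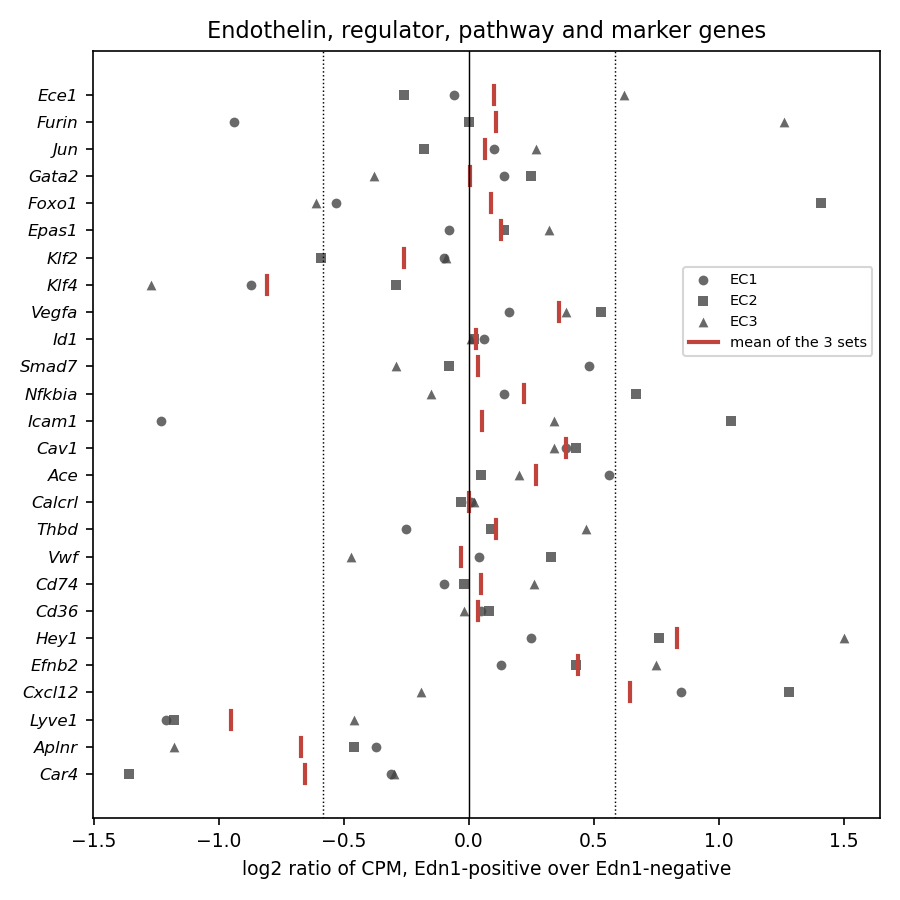
log2 ratio of CPM (horizontal axis), Edn1-positive over Edn1-negative, for 26 genes of the endothelin system, its regulators, signalling and function lists and markers (vertical axis), by set, with the mean as a red bar and dotted lines at 1.5-fold. No gene has all 3 points beyond the same dotted line. Klf2, Klf4, Lyve1, Aplnr and Car4 have all points below 0, and Vegfa, Id1, Cav1, Ace, Hey1 and Efnb2 all above 0.

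The summed levels of arterial and lymphatic markers differed between the classes, each carried by a few abundant genes. The summed level of 14 arterial markers was 4441, 4885 and 4570 CPM in Edn1-positive cells of EC1, EC2 and EC3, and 3472, 3539 and 3603 CPM in Edn1-negative cells, with no overlap. No arterial marker passed the rule. Part of the sum is Gja4, a gap junction gene that the selection used: it stood at 1768 against 1208 CPM, 1196 against 716 CPM and 1285 against 878 CPM, and 69.7% (62.6 to 76.2) of Edn1-positive and 60.0% (52.9 to 66.8) of Edn1-negative cells had it at 20 CPM or more. The 9 arterial markers that the selection did not use summed to 2672 against 2263 CPM, 3636 against 2774 CPM and 3205 against 2701 CPM, higher in each set but overlapping across sets. Dkk2 was at 0 in 5 of the 6 class and set sums, and Gja5 and Bmx in 3 each.

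Most single arterial genes did not follow the sum. Of the 8 that the selection did not use and that had at least 5 CPM, Hey1, Efnb2 and Cxcl12 had a mean log2 difference above 0 and Mgp, Fbln2, Stmn2, Clu and Vegfc one below 0, with a median of -0.19 beside -0.05 over all genes. Of the 5 tested, 2 were higher in each set, Hey1 and Efnb2. Hey1, a Notch target, stood at 306 against 257 CPM, 339 against 201 CPM and 518 against 184 CPM. Efnb2, the ephrin of arterial endothelium, stood at 784 against 716 CPM, 717 against 531 CPM and 934 against 556 CPM, with reads in 68.6% and 54.0% of cells. The chemokine gene Cxcl12 stood at 858 against 476 CPM, 1441 against 593 CPM and 843 against 964 CPM, so it was higher in EC1 and EC2 only. In cells with none of the 5 gated arterial genes at 20 CPM, the 9 other markers summed to 2805 against 1705 CPM, 3845 against 2197 CPM and 3766 against 2999 CPM. These sums rest on 14 and 21, 18 and 33, and 12 and 18 cells. The share of Edn1-positive cells among them was 32.6%, 29.5% and 31.6%. In these cells Hey1 was higher in each set, while Efnb2 stood at 757 against 299 CPM, 370 against 556 CPM and 1093 against 362 CPM. Efnb2 was thus lower in EC2, and Cxcl12 was again higher in EC1 and EC2 only. What part the arterial markers have in the other differences was not tested.

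The lymphatic list of 7 measured genes was lower in Edn1-positive cells in each set, at 361 against 574 CPM, 391 against 776 CPM and 608 against 832 CPM, overlapping across sets. Most of it was Lyve1, a hyaluronan receptor, at 199 against 462 CPM, 287 against 652 CPM and 432 against 593 CPM, with reads in 26.5% and 41.5% of cells. Prox1, the factor that defines lymphatic cells, was at 0 in all Edn1-positive sums and in Edn1-negative cells of EC3. Of the 3 lymphatic genes at 5 CPM or more, Lyve1 and Flt4 had a mean log2 difference below 0 and 1 gene one above 0. Their median was -0.06. Lyve1 did not reach 1.5-fold in EC3. In cells with no gated arterial gene the lymphatic sums were 779 against 746 CPM, 417 against 799 CPM and 1232 against 856 CPM, with no common direction. Aplnr, the apelin receptor of general capillary cells, stood at 383 against 495 CPM, 370 against 510 CPM and 163 against 368 CPM. Car4, a carbonic anhydrase richest in aerocytes, stood at 588 against 730 CPM, 270 against 695 CPM and 212 against 261 CPM. Among cells with no gated arterial gene, Aplnr and Car4 were lower in EC2 and EC3 only. In EC1 they stood there at 621 against 426.5 CPM and 863 against 665 CPM.

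Markers of other cell types were summed in the same way. Aerocyte markers summed to 2422 to 2720 CPM in Edn1-positive and 2321 to 3123 CPM in Edn1-negative cells, venous markers to 1211 to 1433 and 1255 to 1518 CPM, and epithelial markers to 363 to 402 and 330 to 446 CPM. Leukocyte markers were lower in Edn1-positive cells in each set, at 65.1 against 158 CPM, 76.0 against 217 CPM and 62.4 against 64.2 CPM, overlapping across sets. Fibroblast markers summed to 12.1 to 162 and 59.5 to 119 CPM, pericyte markers to 48.4 to 125 and 89.5 to 111 CPM and smooth muscle markers to 45.6 to 86.6 and 37.3 to 68.9 CPM. All of these ranges, from aerocyte to smooth muscle, overlapped between the classes. Cd3e or Cd79a was at 0 in every class and set. Platelet and red cell lists summed to at most 21.3 CPM, and the mesothelial list, higher in Edn1-positive cells in each set and without overlap, to 6.95 to 7.46 and 3.79 to 5.83 CPM. What part these markers have in the differences was not tested. Without cells holding 500 CPM or more of leukocyte, platelet, fibroblast, pericyte or smooth muscle markers, 15 genes passed as higher and 18 as lower. Of these, 6 and 4 were among the 22. Epithelial, red cell and mesothelial markers were not used to leave out cells here.

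**Figure D5:**
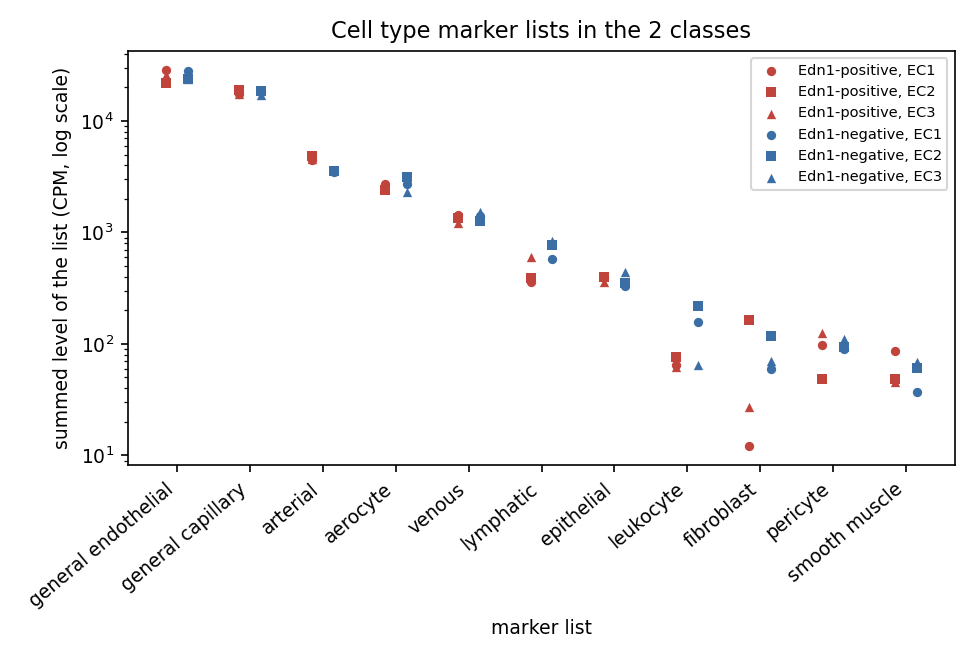
Summed level of cell type marker lists (vertical axis, CPM on a log scale) for 11 lists (horizontal axis), with red for Edn1-positive and blue for Edn1-negative cells and 1 symbol for each set. The arterial list is the 1 in which all red points, at 4441 to 4885 CPM, lie above all blue points, at 3472 to 3603 CPM. It includes 5 genes that the selection used, and without them the classes overlap across sets, at 2672 to 3636 and 2263 to 2774 CPM.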

How the data were processed

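Single cells were sequenced with SMART-seq2, and the authors deposited raw read counts per gene and cell. Alignment used STAR 2.4.2a and mm10, per the submitters' processing notes. What counted the reads, with which annotation and cell filter, is not given in the sources used here. The deposited scores are, from their values, counts scaled to a common total per cell and rounded, and served in an alternative only. The EC columns were taken as Cldn5(BAC)eGFP because the series design says that this reporter labels endothelium.

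CPM are reads over the column total, times 1000000. Class levels are reads summed over cells, over summed totals. A side with under 3 reads was set to 3 reads for log2 differences. List medians cover genes with a mean of 5 CPM. The 11 genes of the selection were not counted in the size rule. For shares of cells with a read, each cell was thinned to 50000 reads. Python 3.11.15, numpy 2.4.6, scipy 1.17.1 and, for TMM factors in an alternative, edgeR 4.0.16 were used. Intervals are exact at 95% (Poisson, Clopper-Pearson, conditional for ratios), and SMART-seq2 reads carry no molecular identifiers, so they cover counting error only. No doublet caller was run.

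The members, 17 function lists and 14 marker lists were chosen with earlier results of these data known. The genes named are the endothelin list, the 10 largest mean log2 differences in each direction past the rule and up to 4 members of each function list. Klf4, Id1, Smad7, Nos3, Vwf, Hey1, Efnb2, Cxcl12, Lyve1, Aplnr, Car4, Rela, Ldha, Med12 and Tubb5 were named after their values had been seen. Coordinates are from GENCODE M21 (GRCm38), which placed 21 of the 22 genes past the rule. Gm47118, an antisense gene, overlaps Edn1. The SMART-seq2 kit does not mark strand, so their reads cannot be told apart. Tmem63a, Rbm25, Slc6a6, Mat2a, Klf7, Tmem88, Ndufc2, Ttc3 and Clasp2 also overlap annotated neighbours.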

Additional observations from a re-analysis of the deposited data

How the results depend on the processing

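Of 19 named genes past the size rule, followed over 23 alternatives, 1 changed direction: Pros1 had a mean log2 difference of -0.41 in cells with no gated arterial gene at 20 CPM. Sizes moved more than directions. The mean log2 difference ran from -1.365 to -0.007 for Klf7, from 0.342 to 0.996 for Slc6a6 and from 0.447 to 1.297 for Maf1. Several alternatives (the fold, the filter, the demand on shares) leave these differences as they are. Counts of genes past the rule, 9 higher and 13 lower, were 34 higher and 55 lower at a log2 ratio of at least 0.32 in each set, 0 and 0 at 2-fold, and 507 and 620 of 21937 genes with no filter on low values. They were 60 and 105 in cells with no gated arterial gene (44 and 72 cells). Leaving out 1 set, so that the fold was needed in 2 sets only, gave 54 to 66 higher and 54 to 80 lower genes. There were 7 lower genes with Edn1-positive set at 200 CPM, and 16 higher genes in cells with at least 150000 reads, 4 of them among the 9. There were 15 higher genes without cells with leukocyte, platelet, fibroblast, pericyte or smooth muscle markers at 500 CPM. There were 6 lower genes where the share of cells had to fall in each set as well. The last alternative, leaving out the top cell, and leaving out rows I to L or rows K and L of EC2 were chosen after the data were seen. The row alternatives gave 6 higher genes each, and 14 and 13 lower genes. The other alternatives, among them TMM and median-ratio factors, thinned reads and the deposited scores, left both counts within 1.5 times, but not the same genes. With Edn1-negative set at under 20 CPM, 4 of the 9 higher and 8 of the 13 lower genes were shared, and with Sftpc and Scgb1a1 under 1000 CPM 6 and 5. The thinned reads and the scores each shared 4 of the 13 lower genes with the main result, and the scores 8 of the 9 higher genes. The Edn1-positive share of EC1 was 32.6% in cells with no gated arterial gene.

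No paired analysis was possible because the columns carry no replicate numbers and the results come from no test. The depth of about 192066 reads a cell limits what a count of 0 shows: 3 reads correspond to 0.179 to 0.269 CPM in the summed Edn1-negative cells of a set, but a single cell with 0 reads may hold a low level of Edn1.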
